A study of Mus musculus with 54 samples.

Results

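The peaks described here are all those in the ChIP-seq lists of 5 KRAB zinc finger proteins (KZFPs): Zfp978 and Zfp979 of batch 1, Zfp_MB004 and Zfp_MB010 of batch 3 and Zfp_MB021 of batch 4. They numbered 245 of the 25012 peaks in the 42 lists of the series, with 24 for Zfp978, 43 for Zfp979, 54 for Zfp_MB004, 43 for Zfp_MB010 and 81 for Zfp_MB021. The lists were selected on measured values: the first 4 had their most frequent summit sequence in the same L1-like family, and Zfp_MB021 has the zinc finger array of Zfp979, the order of DNA-contacting residues along its 5 fingers. Zfp978 has 9 fingers, Zfp_MB004 has 15 and Zfp_MB010 has 16, each in an array of its own. In every library the coding sequence of 1 KZFP from the C57BL/6J (BL6J) chromosome 4 cluster, with an HA tag at its C terminus, was carried into F9 cells by a Sleeping Beauty transposon vector with puromycin resistance. F9 is a mouse embryonal carcinoma line, and the selected cultures were pools that over-expressed the protein. Chromatin recovered with the tag was compared with 1 mixed input per batch, and controls carried the vector without a KZFP. Each KZFP has 1 library, so no value below has an error between repeat experiments, and KZFP and library cannot be told apart. Of the 4 empty vector controls, 1 belonged to batch 1, 1 to batch 2 and 2 to batch 4, so that Zfp_MB004 and Zfp_MB010 had none of their own batch.

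The fold enrichment over input of the peaks differed between the lists in part by the cutoff that the authors applied. In Zfp978 it ran from 5.05 to 19.1 with a median of 5.97, and 4 peaks reached 10. In Zfp979 it ran from 5.05 to 78.0 with a median of 6.58, and 11 peaks reached 10. In Zfp_MB004 it ran from 5.04 to 25.5 with a median of 6.26, and 12 peaks reached 10. These 3 lists were thus cut at 5. Zfp_MB010, with 10.25 to 215.7 and a median of 14.27, and Zfp_MB021, with 10.08 to 81.0 and a median of 12.79, were cut at 10. Median widths of peaks on chromosomes were 525 bp in Zfp978, 920.5 bp in Zfp979, 868.5 bp in Zfp_MB004, 725 bp in Zfp_MB010 and 316 bp in Zfp_MB021.

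KZFPs bind DNA through tandem zinc fingers and recruit, through their KRAB domain, a co-repressor that brings histone H3 lysine 9 trimethylation. Many of them recognise transposable elements. L1 elements are active autonomous retrotransposons of the mouse genome. An intact copy has a promoter made of repeated monomers, a first open reading frame (ORF1) for an RNA-binding protein, a second (ORF2) for an endonuclease and reverse transcriptase, and a tail that ends in poly(A). Most copies have lost their 5′ part, and the copies of a young family are nearly identical. A short read from such a copy fits many places equally well, and the authors retained 1 of the equally good places at random.

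Most L1 peaks of Zfp978, Zfp979, Zfp_MB004 and Zfp_MB010 lay on L1 sequence that was not colinear with an intact element. Inside the peak the alignment jumped from one position of the L1 sequence to another, or turned to the opposite strand. Such a place is called a join. Below, 3 joins with both sides in ORF2 are printed as examples, with 120 bp of the GRCm39 plus strand around each. Lower case is the side before the join and capitals mark the side after it. L1 positions are counted from 0 at the first base of ORF1. The first, at chrX:39396949-39397068, was in the peaks of Zfp978 and Zfp979. Peaks of Zfp6001, Zfp6002, Zfp_MB003 and Zfp_MB005 overlapped these peaks. At this first join the L1 sequence ran on the minus strand to position 2227 and resumed at position 3327, which repeated a stretch of 1098 bp. The second, at chr4:61914188-61914307, jumped from position 4339 to 4779 with 447 bp missing, and was 1 of 4 joins in each of the peaks of Zfp978, Zfp979 and Zfp_MB010. The same 120 bp stood again in these peaks at chr4:61915200-61915319. Peaks of Zfp986, Zfp_MB003 and Zfp_MB005 overlapped them. The third, at chrX:56933773-56933892, was in Zfp_MB004 alone of the 42 lists and returned from position 3425 to 2596, with 828 bp repeated. The printed joins are not the usual ones. In most joins with a repeated stretch, 1 side lay at or next to position 5675, the end of the L1 sequence used. There the 3′ end of the element met a second stretch of its 3′ part.
Zfp978 and Zfp979, X: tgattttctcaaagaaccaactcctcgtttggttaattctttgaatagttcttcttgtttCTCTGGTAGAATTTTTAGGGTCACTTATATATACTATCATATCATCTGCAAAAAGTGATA
Zfp978, Zfp979 and Zfp_MB010, chromosome 4: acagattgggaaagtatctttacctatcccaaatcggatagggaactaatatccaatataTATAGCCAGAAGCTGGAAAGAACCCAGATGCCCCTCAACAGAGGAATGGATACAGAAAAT
Zfp_MB004, X: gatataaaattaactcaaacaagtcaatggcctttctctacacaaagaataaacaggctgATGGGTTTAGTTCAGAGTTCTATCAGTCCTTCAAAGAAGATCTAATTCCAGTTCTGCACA

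The L1 reference was an element under a Zfp979 peak. Among summits of the 4 lists, 7 had within 10000 bp an ORF of at least 1200 codons with another of at least 300 codons ahead of it. Of these, the peak with the highest fold enrichment over input, 40.9 in Zfp979, lay on the chromosome 3 copy. Its ORF1 of 371 codons spans chr3:66810270-66811385 and its ORF2 of 1281 codons spans chr3:66811426-66815271. ORF2 holds 1 FADD, the residues of the reverse transcriptase active site. The tail ran for 674 bp after ORF2. The last 1133 bp of the element were then repeated next to it at 99.0% identity, so this copy itself had a join, 10 bp from the summit. The L1 sequence used for positions and joins ends where that repeat starts, with its last base at position 5675.

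Of the 239 peaks on chromosomes, 105 had a summit window of 200 bp that aligned to this copy over at least 100 bp at 80% identity or more. Over all peaks of the 37 other lists the share was 2.26%. List by list, the others ran from 0.0% to 81.0% with a median of 0.9%, led by Zfp268 with 17 of 21 and Zfp_MB013 with 20 of 72, so such shares were not limited to the 4 lists. By list the count was 17 of 24 for Zfp978 (70.8%, exact 95% binomial interval 48.9% to 87.4%) and 27 of 42 for Zfp979 (64.3%, 48.0% to 78.4%). It was 36 of 54 for Zfp_MB004 (66.7%, 52.5% to 78.9%), 11 of 43 for Zfp_MB010 (25.6%, 13.5% to 41.2%) and 14 of 76 for Zfp_MB021 (18.4%, 10.5% to 29%). Intervals cover counting error only. The first 4 lists were chosen for an L1-like family, so their shares are a description with no test. That family was small: it held 46 summit windows of all 42 lists, with 3 of Zfp978, 3 of Zfp979, 8 of Zfp_MB004, 6 of Zfp_MB010 and 1 of Zfp_MB021. In Zfp979 it was tied with others for the largest, 4 in all.

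Summit positions on the L1 sequence were compared with those of the other lists. Of the 17 of Zfp978, 13 lay past position 3000, in the 3′ part of ORF2 or the tail. This held for 25 of 27 in Zfp979, for 29 of 35 in Zfp_MB004, for 10 of 11 in Zfp_MB010 and for 9 of 14 in Zfp_MB021. In the 37 other lists it held for 170 of 552 (30.8%), and for 170 of 325 without Zfp_MB014. The share among L1 copies in general was not measured. Another summit of Zfp_MB004, near Bag6, aligned outside the stretch on which positions were counted. Zfp_MB010 had 9 of its 11 past the end of ORF2, against 5 of 17 for Zfp978, 7 of 27 for Zfp979 and 18 of 35 for Zfp_MB004. The 14 of Zfp_MB021 had 3 in ORF1, 10 in ORF2 and 1 in the tail. The median identity to the copy was 97.0% for Zfp978, 96.5% for Zfp979, 95.3% for Zfp_MB004, 93.9% for Zfp_MB010 and 97.5% for Zfp_MB021. Both medians of batch 3 were below both of batch 1.

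**Figure D1:**
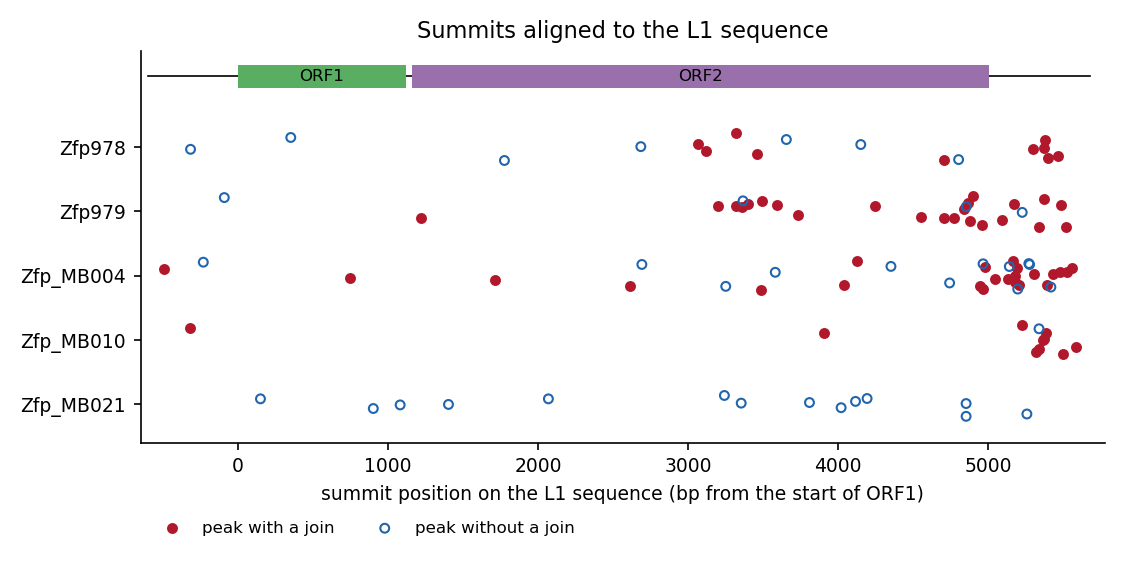
Summits that aligned to the L1 sequence, 1 point per peak and 1 row per list, by position in bp from the start of ORF1. The bars show ORF1 and ORF2, filled points are peaks with a join and open points are peaks without one, and the vertical scatter within a row has no meaning. Past 3000 bp lie 25 of 27 summits of Zfp979 and 10 of 11 of Zfp_MB010, and no point of Zfp_MB021 is filled.

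Joins were counted inside the whole peak, not just the summit window. At least 100 bp of the peak aligned to the L1 sequence in 94 peaks of the 4 lists, and 66 of these held a join. By list, the counts were 10 of 17 for Zfp978 (58.8%, exact 95% binomial interval 32.9% to 81.6%), 23 of 28 for Zfp979 (82.1%, 63.1% to 93.9%), 23 of 37 for Zfp_MB004 (62.2%, 44.8% to 77.5%) and 10 of 12 for Zfp_MB010 (83.3%, 51.6% to 97.9%). Zfp_MB021 had none in 17 such peaks, which allows a share of up to 17.6% by the rule of 3 counts, or 19.5% by the exact interval. Its peaks were narrow, with a median of 316 bp over the whole list, so less sequence was searched per peak. Over all peaks of the 37 other lists on the L1 sequence, 8.61% held a join, a value set largely by Zfp_MB014 with 0 of 514 and Zfp_MB016 with 2 of 125. List by list, the 20 others with at least 5 L1 peaks ran from 0.0% to 57.1% with a median of 10.0%. The highest were Zfp986 with 4 of 7, Zfp_MB003 with 18 of 33, Zfp_MB005 with 27 of 52 and Zfp980 with 8 of 17, so joins were not particular to the 4 lists. Of all peaks of the 37 lists, on the L1 sequence or not, 0.408% held one. Intervals of the same lengths were also read at fixed distances from the peaks of the 4 lists. Shifted 3000 bp upstream, 56 intervals reached the L1 sequence and 4 held a join. Shifted 3000 bp downstream, 50 reached it and 8 held a join. With a fold of at least 10 in every list, 29 of 36 peaks on the L1 sequence held a join. Without Zfp979 the number of peaks with a join fell to 43, and without Zfp_MB004 it was also 43. The measure was chosen after these lists were seen, so these shares are given without a test.

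**Figure D2:**
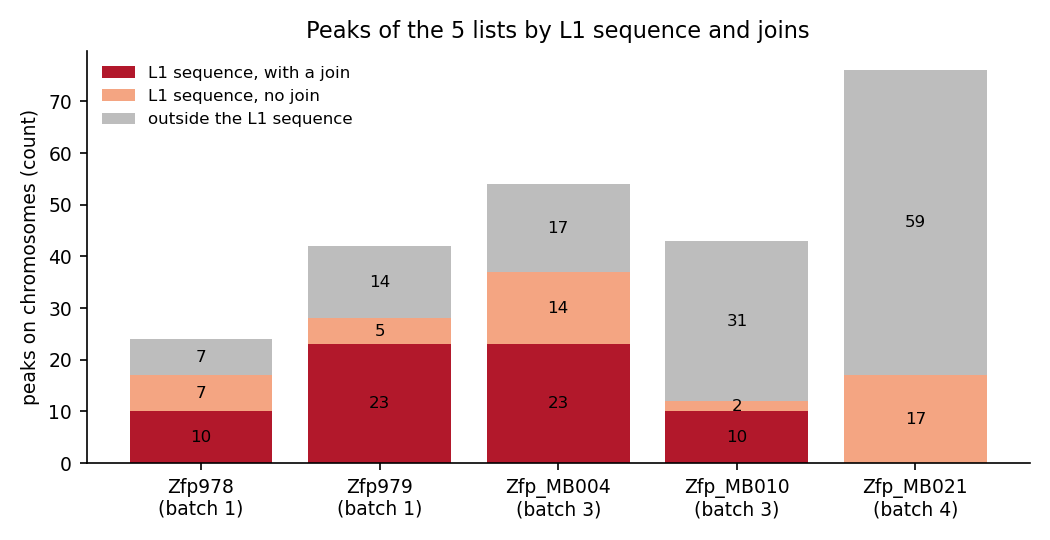
Peaks on chromosomes in each list, as counts, split into peaks on the L1 sequence with a join, peaks on it without one, and peaks outside it. The first 4 lists hold 10, 23, 23 and 10 peaks with a join, and Zfp_MB021 holds none.

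Elsewhere in the series, 17 of the 37 other lists had at least 1 peak with a join. The counts by batch include 1 peak with under 100 bp on the L1 sequence. The 11 other lists of batch 3 had 59 such peaks among 731 on the L1 sequence, and the 3 of batch 2 had 9 of 26. The 19 other lists of batch 4 had 15 of 234. The only other list of batch 1 had 7 of 122 and the 3 of batch 5 had 11 of 48. Shares differed within batches too. In batch 1 the other list, Zfp982, had 5.7% beside the 58.8% and 82.1% of Zfp978 and Zfp979, and in batch 4 Zfp980 had 47.1% beside the 0.0% of Zfp_MB021.

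Joins fell into 3 kinds. A stretch was repeated in 46 of the 66 peaks, a stretch was missing in 20, and the strand turned in 7, with some peaks in more than 1 kind. Repeats prevailed in Zfp_MB004, in 20 of its 23 peaks with a join, against 3 with a missing stretch. In Zfp978 both kinds were in 5 of 10 peaks. Zfp979 had 13 peaks with a repeated stretch and 10 with a missing one, and Zfp_MB010 had 8 and 2.

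Peak width differed with the kind of join, as a description with no test. The 39 peaks with 1 join of the repeated kind were 535 to 2124 bp wide (median 1023 bp), with fold enrichments of 5.2 to 78.0 (median 10.2). The 13 with 1 join of the missing kind were 304 to 585 bp wide (median 417 bp), with folds of 5.1 to 9.5 (median 5.4). Of these 13, 11 were narrower than every peak of the first kind. List and cutoff moved with the kind: 12 of the 13 were from Zfp978 and Zfp979, cut at 5, and none from Zfp_MB010, cut at 10, which had 6 of the 39. Within Zfp979 the median fold was 10.5 for 11 repeated and 5.37 for 8 missing stretches, with median widths of 1223 and 403.5 bp. Within Zfp978 it was 10.42 and 5.94 for 4 of each, with widths of 1395.5 and 474.5 bp. Where a stretch was missing, the join sat near the middle of the peak, within 100 bp of it in 12 of 13, and the summit lay a median of 95 bp away. Where a stretch was repeated, the join was that near the middle in 6 of 39, and the summit lay a median of 291 bp away.

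The width of a peak over a repeat was close to the length of the repeated stretch. In 28 separate regions with 1 such join, the stretch was 784 to 1133 bp over all peaks of this kind, and width minus stretch had a median of 89 bp, with 20 of 28 within 200 bp. Width and length of the stretch had a Pearson r of 0.76 and a Spearman rho of 0.83 over these 28 regions, and r was 0.75 without the 2 regions of the most extreme stretch. This is a description across regions, which share libraries and 1 reference element. List moved with the stretch, which was 784 to 956 bp in Zfp_MB004 and 848 to 1133 bp in Zfp979. Median widths were 889.5 bp for the 18 peaks of Zfp_MB004 and 1223 bp for the 11 of Zfp979. The relation within a list was not measured, so the coefficients cannot be separated from this difference between lists. The 2 widest regions were the chrX region of Zfp979, 2124 bp over a stretch of 1098 bp, and a region of chromosome 1, 1905 bp wide in Zfp979.

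**Figure D3:**
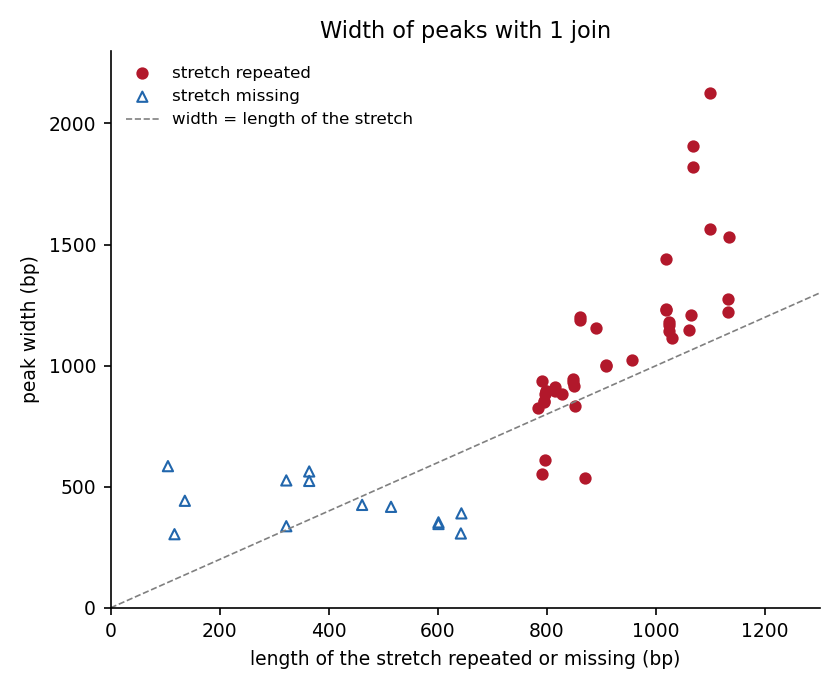
Peak width in bp against the length in bp of the L1 stretch that is repeated or missing at the join, 1 point per peak with a single join, in the 4 lists. The dashed line marks equal lengths. The 39 peaks over a repeated stretch range from 535 to 2124 bp, 20 of the 28 regions they form lying within 200 bp of the line, and the 13 over a missing stretch stay between 304 and 585 bp.

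Sequence across a join was rarer than sequence beside it. Joins outside the peaks of these lists were not counted in this way, so the difference is not shown to be particular to them. The 100 bp centred on a join occurred once in the genome for 45 of 52 separate joins, counting exact matches on both strands. At 300 bp before the join, 14 of 52 such windows occurred once, with a median of 250 copies and up to 7113. At 300 bp after it, 17 of 52 occurred once, with a median of 9.5 copies. Around the summits themselves, 42 of the 66 peaks with a join had an identical 100 bp elsewhere. Over whole lists this share was 70.8% in Zfp978, 54.8% in Zfp979, 46.3% in Zfp_MB004, 16.3% in Zfp_MB010 and 40.8% in Zfp_MB021, against 26.6% of all peaks of the 37 other lists and a median of 20% over those lists, the highest being 68.5%. The part of read placement in these peaks was not tested.

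The 28 L1 peaks of the 4 lists without a join had a median fold of 5.79, against 8.88 with one. Of the 28, 7 reached a fold of 10, against 29 of 66. Median widths were 684.5 bp without a join and 971.5 bp with one. A list of another array held 12 of the 28 without a join and 47 of the 66 with one. These differences were not tested. The highest fold without a join was 27.5, in Zfp979 by Gm43442, a processed pseudogene. Next was a peak of Zfp_MB004 at chr16:63827983-63828351, with a fold of 25.5, the highest of that list, and 5635 exact copies of the 100 bp at its summit.

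The 5 lists shared 30 regions when peaks with at least 1 bp in common were merged, and 6 of these were in at least 3 lists. Of the peaks of Zfp978, 13 of 24 (54.2%) were held by Zfp979, which is 31.0% of the 42 of Zfp979. Zfp_MB004 and Zfp_MB010 shared 9 peaks, 16.7% of the first and 20.9% of the second. Zfp979 and Zfp_MB010 shared 6, Zfp978 and Zfp_MB010 shared 5, Zfp979 and Zfp_MB004 shared 3, and Zfp978 and Zfp_MB004 shared 1. Zfp_MB021 had no peak in common with Zfp978 or Zfp_MB010 and 1 with Zfp_MB004. Among the 5 lists, each of the 4 L1 lists had its largest overlap with the other list of its own batch. Without Zfp979 the number of regions in at least 2 lists fell to 14, and with a fold of at least 10 in every list it was 12.

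The region in most lists was chr13:70023499-70024727, intergenic, where the L1 sequence turned strand at 2 joins. Its fold was 15.7 in Zfp978, 25.4 in Zfp979, 8.3 in Zfp_MB004 and 31.6 in Zfp_MB010, and the peaks were 1201, 1227, 1067 and 1211 bp wide. Next came chr3:10054410-10055590, with folds of 19.1 in Zfp978, 32.7 in Zfp979 and 25.6 in Zfp_MB010, over a repeated stretch of 1023 bp from the 3′ end of the element. At chr6:35903393-35904596, by Gm43442, the folds were 13.4, 27.5 and 13.5 in the same 3 lists. The remaining 3 were chr4:61913772-61916050, with folds of 6.0, 13.1 and 10.6 in those lists, chr2:150958883-150960326, with 6.0, 8.0 and 17.6, and chr8:98734562-98735486. The last had folds of 5.7 in Zfp979, 21.2 in Zfp_MB004 and 10.3 in Zfp_MB010. All 6 reached the L1 sequence and 5 held a join. Without Zfp978, 2 regions were in at least 3 lists, and without Zfp979 or without Zfp_MB010 there was 1. Folds are relative to the input of each batch, so their order between batches is not a measure of binding strength.

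Other lists held the same 6 regions. Zfp_MB003 was at all 6 and Zfp_MB005 at 5, both of batch 3, and Zfp986, Zfp6001, Zfp6002 and Zfp_MB012 were at some of them. Of the 44 separate regions with a join, 16 were in at least 2 of the 5 lists and 22 in at least 1 of the 37 others. A list of batch 4 or 5 was at 1 of the 44. Batch 4 has 20 KZFP lists, Zfp_MB021 among them, and batch 5 has 3. Regions without a join were not counted in these ways. Whether regions with a join differ from them in the lists or batches that hold them was thus not tested.

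**Figure D4:**
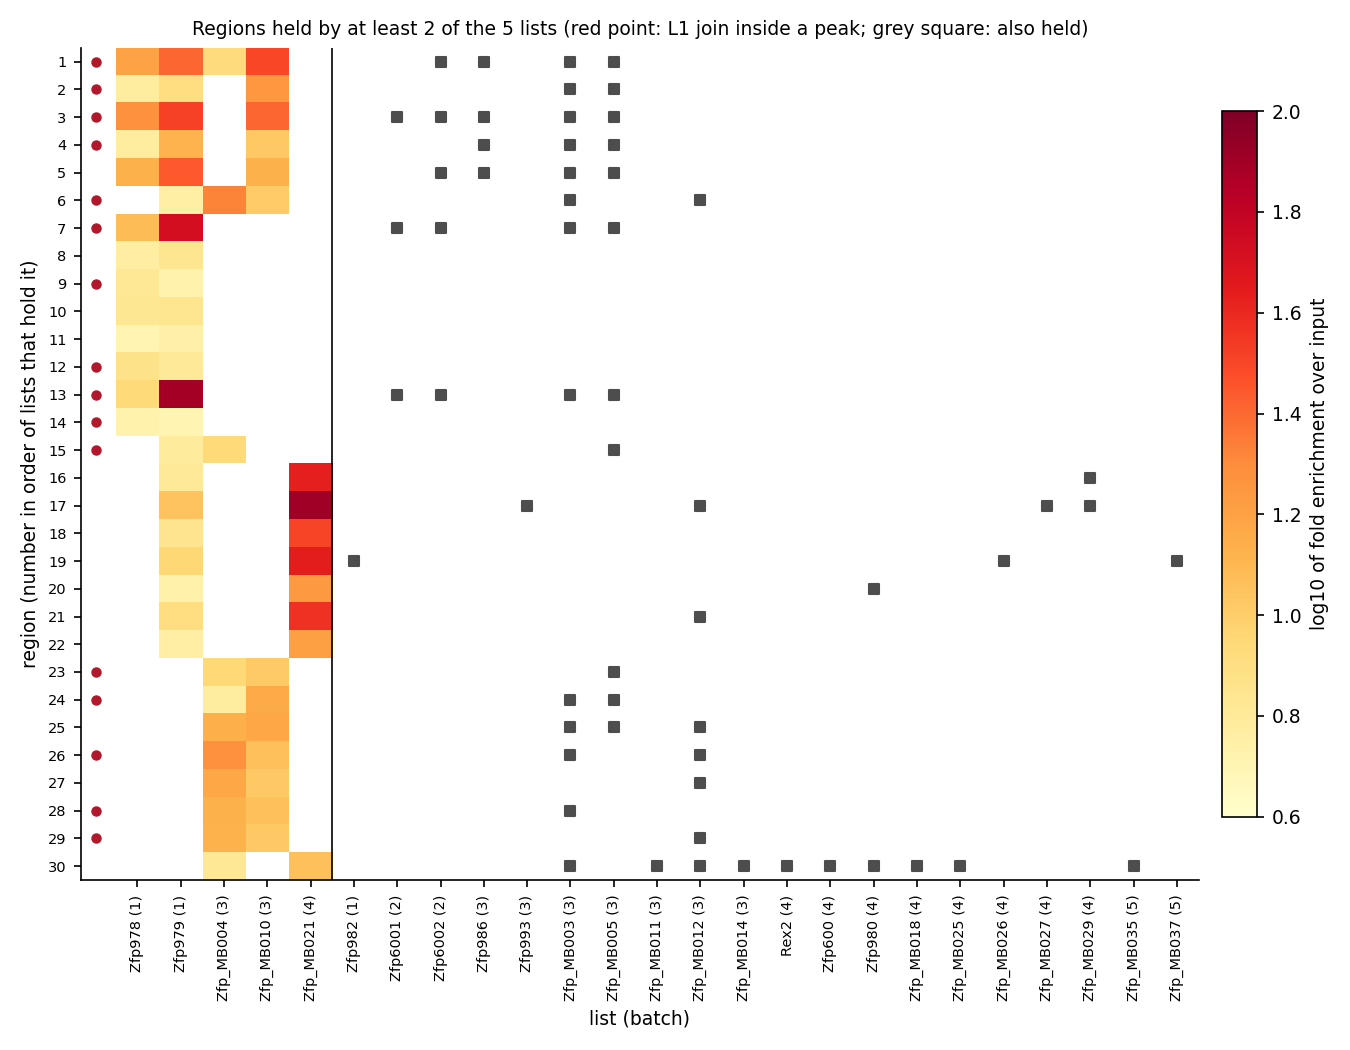
The 30 regions held by at least 2 of the 5 lists, 1 row each, and the lists that hold them in columns with the batch in brackets. Colour is the log10 of the fold enrichment over input in the 5 lists, grey squares mark other lists that hold the region, and a red point marks an L1 join. Rows 1 to 6 are the regions in at least 3 lists. The 7 regions of Zfp979 and Zfp_MB021 have no red point.

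Shared peaks had nearly the same edges in different libraries. In 37 overlapping pairs among the 4 L1 lists the starts differed by a median of 18 bp and the ends by 12 bp, with 25 starts and 30 ends within 50 bp. The summits of the same pairs differed by a median of 183 bp, with 14 of 37 within 50 bp. The edges thus repeated more closely than the summits. At chr13:97837528-97838496, a region outside the L1 sequence, the peaks of Zfp_MB004 and Zfp_MB010 were both 968 bp wide. In the 9 pairs that involved Zfp_MB021 the edges differed more than the summits, with median differences of 288 bp for starts, 217 bp for ends and 42 bp for summits.

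Zfp979 and Zfp_MB021 have 1 array, from different genes and batches, and shared 7 regions. These held 8 of 42 peaks of Zfp979 (19%) and 7 of 76 of Zfp_MB021 (9.2%). That they share an array was part of how the lists were chosen. None of the 8 Zfp979 summits aligned to the L1 copy and none of the peaks had a join. In Zfp_MB021 the shared peaks were the wide and strong ones. They ranged from 1118 to 6929 bp in width (median 3059 bp), against a median of 288 bp for its other 69 peaks, of which 7 reached 1000 bp. By fold they took 4 of the first 5 places and the lowest was in place 22. In Zfp979 their folds were low, 5.4 to 11.1, and of the 11 Zfp979 peaks with a fold of 10 or more, 1 was shared with Zfp_MB021 and 6 with Zfp978. A list cut at 10, as that of Zfp_MB021 was, would have kept 1 of the 8.

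The strongest shared region was chr4:156505809-156509321, intergenic, with a fold of 81.0 in Zfp_MB021 and 11.1 in Zfp979. A neighbour at chr4:156516570-156519628 had folds of 32.0 and 7.1. The region at chr5:32865575-32871812 overlapped Gm43852, with folds of 43.8 and 9.0. At chr4:88559244-88566172, next to the interferon gene Ifna13, the Zfp_MB021 peak of 6929 bp, with a fold of 42.6, covered 2 Zfp979 peaks with folds of 6.4 and 5.4. On chromosome 7, the region at chr7:7272399-7274685 in introns of Gm45844 and Gm18190 had folds of 37.4 and 8.0, and chr7:7991437-7992554 had 16.2 and 5.8. The last, chr5:129709165-129710582, had 17.2 and 5.4. In 5 of the 8 pairs the summits were within 200 bp. Lists of other arrays held 5 of the 7 regions, and the one of highest fold was in 4 of them, Zfp993, Zfp_MB012, Zfp_MB027 and Zfp_MB029. Around the summit, 6 of the 7 had no identical 100 bp elsewhere in the genome.

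The array of this pair has a predicted target of 6 bases, CTTACA or CTTATA. The 200 bp summit window of Zfp_MB021 at chr7:7274052-7274251 is printed to show the hexamer, in capitals, in 1 of the regions that both lists hold.
Zfp_MB021 and Zfp979, chromosome 7: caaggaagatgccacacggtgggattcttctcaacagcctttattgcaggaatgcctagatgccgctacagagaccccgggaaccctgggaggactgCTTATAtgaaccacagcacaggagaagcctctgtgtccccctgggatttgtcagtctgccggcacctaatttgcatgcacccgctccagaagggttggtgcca
Over all peaks, either hexamer on either strand was in 17 of 42 summit windows of Zfp979 (40.5%) and in 11 windows (26.2%) 1000 bp upstream. For Zfp_MB021 the counts were 13 of 76 (17.1%) and 9 (11.8%). Neither difference passed, with p = 0.146 and adjusted p = 0.292 for Zfp979 and p = 0.503 for Zfp_MB021 (two-sided exact McNemar test, adjusted over 2 lists). In the 37 other lists 18.5% of summit windows held a hexamer and 18.2% of the windows upstream did. Of the shared regions, 2 of the 7 Zfp_MB021 windows and 3 of the 8 Zfp979 windows held one. In windows of 100 bp the order for Zfp979 was the opposite, with 6 of 42 at summits and 7 upstream. Against windows 1000 bp downstream, Zfp979 had 17 (40.5%) at summits and 15 (35.7%) downstream, and Zfp_MB021 had 13 (17.1%) in both.

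Most peaks of Zfp_MB021 were narrow. Of its 76 peaks, 42 were narrower than 350 bp, and 15 of these 42 were held by a list of another array. Summits lay close together more often, with 16 neighbouring pairs within 100 kb, against 2 in Zfp979, 1 in Zfp_MB010 and none in Zfp978 and Zfp_MB004. A group of 11 lay within 100.5 kb on chromosome Y, between 90729950 and 90830447, and 9 of these were held by lists of other arrays, up to 11 arrays at 1 peak. Another 9 lay on chromosome 7 between 7271531 and 9530268. Zfp980 held 18 of the 76 peaks (23.7%), Zfp_MB011 held 16, Zfp_MB035 held 13 and Zfp_MB022 held 12, all of other arrays, and Zfp979 held 7. As a share of the holder's own peaks, these overlaps were 17.7% of Zfp980, 5.44% of Zfp_MB011, 2.63% of Zfp_MB035, 3.29% of Zfp_MB022 and 19.05% of Zfp979.

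Over the 5 lists, 128 of 239 peaks were also in a list of another array. The shares were 66.7% for Zfp978, 71.4% for Zfp979, 46.3% for Zfp_MB004, 44.2% for Zfp_MB010 and 50.0% for Zfp_MB021, against 22.1% of all peaks of the 37 other lists. List by list, the others ran from 6.2% to 96.3% with a median of 46.4%, so the 5 lists lay inside their range, and Zfp_MB004 and Zfp_MB010 near its median. Some peaks were broadly held. In Zfp_MB021, 13 peaks were in lists of at least 5 other arrays, and in Zfp978 and Zfp979 6 each, in Zfp_MB010 4 and in Zfp_MB004 2. Peaks in no other list numbered 8 in Zfp978, 9 in Zfp979, 29 in Zfp_MB004, 24 in Zfp_MB010 and 36 in Zfp_MB021.

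Outside the L1 sequence Zfp_MB010 had peaks in single-copy DNA. All 31 of them were on sequence with no identical 100 bp elsewhere, 22 were inside genes and 7 were in another list. Over all peaks of the 37 other lists, 60.6% were inside genes and 22.1% were in a list of another array. An identical 100 bp elsewhere was found for 26.6% of those peaks. Single-copy sites numbered 0 of 7 in Zfp978, 7 of 14 in Zfp979, 15 of 17 in Zfp_MB004 and 40 of 59 in Zfp_MB021. No test was made of this difference. The peak of highest fold of all 5 lists was among these 31, at chr5:32616101-32617926. Its summit lay 83 bp from the start of Ppp1cb, the gene of a catalytic subunit of protein phosphatase 1, with a fold of 215.7 and a −log10 q of 1406.6, and Zfp982 of batch 1 held it too. The second by fold of these 31, at chr13:22503965-22504897, was near the vomeronasal receptor gene Vmn1r197 with a fold of 28.8, and no other list held it.

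Summits within 1000 bp of a transcription start numbered 22 in the 5 lists, and 8 of these starts were of protein-coding genes. Zfp_MB010 had 4 of them. Besides Ppp1cb, they were Wdr18 (fold 20.2), Chek2, the gene of a DNA damage checkpoint kinase (14.8), and Gabarapl2, an autophagy gene (11.2). Zfp_MB004 had 3, all at low folds: Bag6, the gene of a protein quality control factor (6.0), Atg10, an autophagy gene (5.7), and Haus6, a subunit gene of the augmin complex that acts on spindle microtubules (5.2). Zfp979 had Ifna13 (5.4). Zfp978 and Zfp_MB021 had no protein-coding start, and their starts were those of pseudogenes, lncRNAs or unclassified gene models.

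Measured per library, the 5 lists had 8.96% ± 3.52 (SD, n = 5) of summits within 1000 bp of a start, against 23.3% ± 19.1 (SD, n = 37) in the others. The lowest of the 5 was 4.2% in Zfp978 and the highest 14.0% in Zfp_MB010. In the others the lowest was 1.06%, the median 18.6% and the highest 79.2%, so the groups overlapped. Over all peaks of the 37 lists the share was 27.2%. Summits inside annotated genes made up 42.2% ± 20.7 (SD, n = 5) against 57.6% ± 15.7 (SD, n = 37), with 12.5% in Zfp978, 31.0% in Zfp979, 46.3% in Zfp_MB004, 58.1% in Zfp_MB010 and 63.2% in Zfp_MB021. Over all peaks of the 37 lists it was 60.6%. The median peak width was 671 bp ± 251 (SD, n = 5) against 533 bp ± 176 (SD, n = 37).

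None of the 3 differences passed after adjustment. The start share differed by -14.4 percentage points (p = 0.0421, adjusted p = 0.0995, two-sided exact permutation test over libraries). The share inside genes differed by -15.3 points (p = 0.0663, adjusted p = 0.0995, same exact permutation test), and the width by 138 bp (p = 0.14, same exact permutation test). Without Zfp_MB021, which leaves only the lists chosen for the L1-like family, the share inside genes and the width passed. Both had an adjusted p of 0.0445 by the same exact permutation test, with differences of -20.6 points and 227 bp. This cannot be separated from how the lists were chosen, since 91 of their 163 summit windows aligned to the L1 copy. The lists also shared regions, such as 13 of 24 peaks of Zfp978 with Zfp979, so their values were not independent. With a fold of at least 10 in every list, the start share differed by -7.79 points (adjusted p = 0.409, exact permutation test) and the width by 307 bp (adjusted p = 0.0509, exact permutation test). With 1 value per distinct array, the start share and the share inside genes passed, both at an adjusted p of 0.0194 by exact permutation, with differences of -17.5 and -21.1 points. With libraries permuted within batches, the adjusted p was 0.203 for starts, 0.402 for genes and 0.521 for width, by the same exact permutation test.

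**Figure D5:**
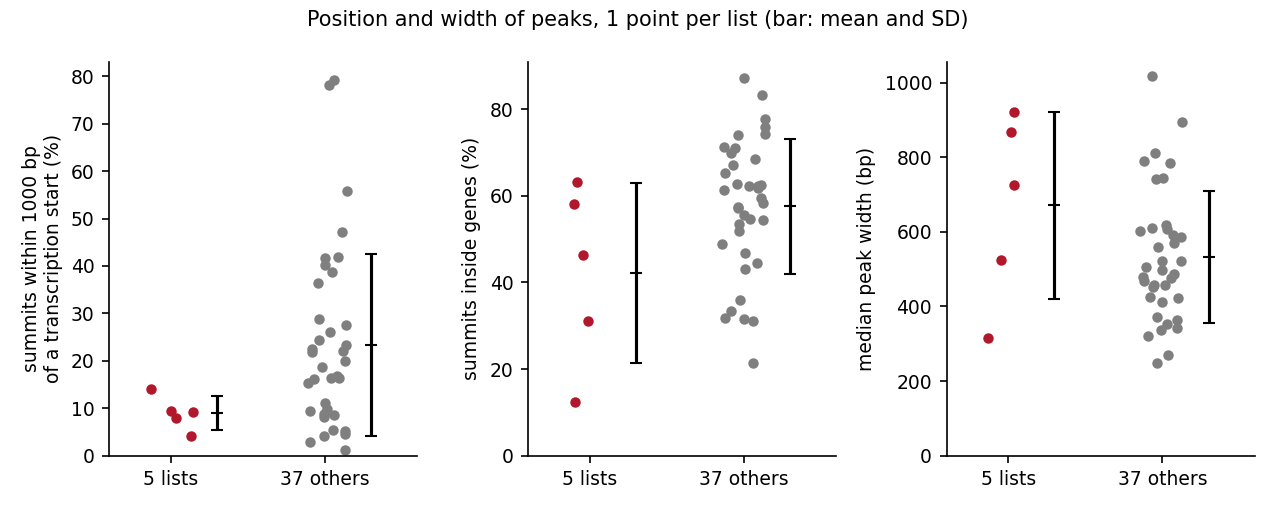
Share of summits within 1000 bp of a transcription start in percent, share of summits inside genes in percent and median peak width in bp, 1 point per list, for the 5 lists and the 37 others. Bars give the mean and SD, and the horizontal scatter has no meaning. The 5 lists lie between 4.2% and 14.0% in the first panel, inside the range of the others.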

How the data were processed

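HA ChIP-seq was made in F9 cells, 1 library per KZFP, and all values are from the peak lists that the authors deposited, on GRCm39. Per the study's methods, paired reads were aligned with BWA and 1 of equally good alignments was retained at random. MACS2 2.2.7.1 was run per library, with the mixed input of that batch as background. Peaks that overlapped an empty vector peak were removed, and those with a fold of at least 10 were retained, or of at least 5 where fewer than 20 remained. SAMtools 1.19 and deepTools 3.5.4 also stand in the submitters' processing notes. The columns deposited by the authors are fold enrichment over input (a ratio), −log10 p, −log10 q and the summit offset, of which the −log10 p-value was not used. Read depth is not in the peak lists and is not used here. The study's reporting summary gives reads per library, and these differed between the 5 lists.

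Lists were grouped by KZFP and batch as the labels give them, and the 5 lists, the sequences and the measures were chosen with earlier results of these data known. The 6 peaks on scaffolds were left out. Summit windows of 200 bp were compared with each other and with the L1 copy by BLAST+ 2.17.0, over at least 100 bp at 80% identity. A join was a jump of at least 100 bp, or a turn of strand, between segments of at least 100 bp with at most 150 unaligned bases between them. This measure was added after the data were seen. Peaks with 1 bp in common were counted as shared, and exact copies of 100 bp were counted on both strands. Genes came from GENCODE vM39. Library values were compared by two-sided exact permutation tests in SciPy 1.17.1 and adjusted by Benjamini-Hochberg over 3 measures, with a threshold of 0.05, and scripts were tested on simulated data. A p-value of these permutation tests measures the spread between KZFPs. The McNemar p-values of the hexamers compare windows over the peaks of 1 library. They measure no spread between KZFPs, and peaks of 1 library are not independent experiments. Hexamers were predicted from the deduced finger sequences of the array. Named genes were taken from those with a start within 1000 bp of a summit and from the 3 peaks of highest fold per list. Of the genes with such a start, the protein-coding ones are all named and most of the rest are not. Others, such as single regions with a join, were chosen after their values were seen. Alternatives were other windows, identities, overlaps and cutoffs, and leaving out each list. The sequences of further joins are not reported here.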

Additional observations from a re-analysis of the deposited data

How the results depend on the processing

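No pairing between libraries was possible because each KZFP has 1 library. The hexamer test paired windows of the same peak within a library. Of the alternatives, 44 values kept their direction and their side of the threshold, or stayed within 1.5 times the main count. In 15 the count moved by more than 1.5 times, and in 5 the difference passed the threshold where the main value did not. A further 2 gave a difference of 0, and 1 changed direction. The 2 differences of 0 were the hexamers of Zfp_MB021 against windows downstream and with 1 peak per sequence family. The change of direction was in Zfp979: in windows of 100 bp its hexamer share at summits minus that upstream was -2.4 points. The cause was not tested. With 1 value per distinct array the start share differed by -17.5 points and the share inside genes by -21.1 points (adjusted p = 0.0194 for both, exact permutation test), and within 500 bp of starts the difference was -15.0 points (adjusted p = 0.041, exact permutation test). When each list was left out in turn, the start share differed by -15.6 to -13.2 points, the share inside genes by -20.6 to -7.92 points and the width by 75.6 to 227 bp. With a fold of at least 10 in every list, which leaves fewer peaks, 12 regions were in at least 2 lists and 3 in at least 3. The same cutoff left 48 summits on the L1 copy, 77 peaks held by another array and 29 with a join. With summits within 200 bp, 2 regions were in at least 3 lists. Leaving out lists gave 14 to 23 regions in at least 2 lists, 1 to 6 in at least 3, and 43 to 56 peaks with a join. The shared family fell from 21 peaks of the 5 lists to 9 at 90% identity and 5 at 150 bp. With 50 bp around the summit, 155 peaks had identical sequence elsewhere. Depth was not used, so whether a region missing from a list lay just under its cutoff was not tested.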

Other observations

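Hexamer counts in the lists of the other arrays showed no excess at summits. The counts were 8 of 24 at summits and 8 upstream in Zfp978, 13 of 54 and 15 in Zfp_MB004, and 5 of 43 and 9 in Zfp_MB010.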
